A study of Mus musculus with 27 samples.

Results

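The genes described here encode 8 proteins that control the decay of inflammatory mRNAs. They are the regnases Zc3h12a, Zc3h12c and Zc3h12d, the roquins Rc3h1 and Rc3h2, and the regulators Arid5a, N4bp1 and Malt1. They were chosen by symbol from a table of 55483 genes, and all 8 were found and passed the filter on low counts in every comparison. Read counts per gene came from RAW264.7 cells, an immortal mouse macrophage line, in 27 libraries: 12 of total RNA, 12 of RNA recovered with an antibody to HuR (ribonucleoprotein immunoprecipitation, RIP) and 3 of RNA recovered with control IgG. The question set by the study was how modulation of HuR alters the macrophage response to LPS. The treatments, of 6 h each, were DMSO, LPS (1 µg/ml) and LPS together with TM7nox. LPS is a bacterial cell wall component that activates macrophages. TM7nox is a tanshinone mimic, a class of compounds made to interfere with the binding of HuR to RNA, and the labels give 10 µM for these compounds. Each treatment had 4 RNA, 4 RIP and 1 IgG library, all IgG libraries were replicate 3, and TM7nox without LPS was not analysed here. All libraries come from 1 cell line, and the labels do not say whether replicates were separate cultures, so p-values measure the spread between these samples, which may be technical.

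Regnase-1, the product of Zc3h12a, is an RNase that cuts short stem-loops in the 3′ UTRs of mRNAs such as Il6, and its own mRNA is among its targets. Regnase-3 (Zc3h12c) and regnase-4 (Zc3h12d) share its RNase and zinc finger domains. Roquin-1 (Rc3h1) and roquin-2 (Rc3h2) bind similar stem-loops and recruit deadenylases and decapping factors. ARID5A binds Il6 mRNA and opposes regnase-1, while N4BP1 is another protein with a regnase-like RNase domain. MALT1 is a protease that cleaves regnase-1, the roquins and N4BP1 and so lifts their repression. HuR, encoded by Elavl1, binds U-rich and AU-rich stretches, mostly in 3′ UTRs, and is known for stabilising such mRNAs.

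Library depth ranged from 2.73 M counts in RNA DMSO replicate 1 to 41.4 M, and the next shallowest library was IgG LPS+TM7nox with 8.87 M. Elavl1 mRNA was itself recovered in RIP, at 2082 to 5314 CPM (counts scaled to a common library size by TMM) against 74.1 to 127 CPM in total RNA and 60.7 to 90.8 CPM with IgG. The 8 macrophage markers summed to 2110 to 5670 CPM per library, with Mertk at no more than 1.12 CPM. The markers of fibroblasts (5), T cells (4), B cells (3) and epithelial cells (4) summed to at most 0.158, 0.221, 0.225 and 0.385 CPM, with Epcam and Krt8 at 0 in all libraries.

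Since HuR is known to bind U-rich 3′ UTRs, the UTRs of the canonical transcripts (GENCODE M39, GRCm39) were read first. The genes fell into a long, U-rich group and a group with average or low U content. The Rc3h2 gene (chr2:37258909-37313172, minus strand) has a 3′ UTR of 6336 bases with 36.3% U, more than 94.7% of the 10980 expressed genes with a 3′ UTR. In Rc3h1 (chr1:160733982-160802548, plus strand) it spans 7181 bases with 34.7% U, and in Zc3h12c (chr9:52020873-52080106, minus strand) 5833 bases with 34.3% U. The median over the 10980 genes was 1354 bases and 29.2% U. Intermediate U content was found in Zc3h12d (chr10:7708080-7746160, plus strand; 2327 bases, 29.9% U), Malt1 (2642 bases, 29.2% U) and N4bp1 (chr8:87534788-87611954, minus strand; 3548 bases, 28.6% U). The lowest U content was in Arid5a (chr1:36346809-36363110, plus strand), with 3826 bases and 22.8% U, and in Zc3h12a (chr4:125012216-125021711, minus strand), with 856 bases and 21.3% U, above only 3.7% of genes. Predicted genes or small RNAs lie within all of these loci except Zc3h12a and Malt1, so part of their reads may have been assigned to the overlapping gene.

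The most U-rich window of 30 bases in the 3′ UTR is shown for 7 of the genes, to set the letters of the U-rich UTRs beside those of the others. The windows are written in the sense of the transcript with T for U, and capitals mark T. They lie at chr2:37264681-37264710 (Rc3h2), chr1:160801547-160801576 (Rc3h1), chr9:52026480-52026509 (Zc3h12c), chr10:7744619-7744648 (Zc3h12d), chr1:36361645-36361674 (Arid5a), chr8:87571023-87571052 (N4bp1) and chr4:125012852-125012881 (Zc3h12a) on GRCm39.
Rc3h2: TTTTcTTTTcTgTcTTTTTTTTTTTTTTTT
Rc3h1: gaTTTTTcTTagTTTTTTTgTTTTgTTTTT
Zc3h12c: TTTTTTTTTTTTTTTTTaacaTTTccTTTT
Zc3h12d: TcTTTTTTTTTTTTTTTTTTaaTcagccTT
Arid5a: TTTggTTggTTggTTTTcTTggcTTcTTTT
N4bp1: TTTacagTTTTaTgTTTTTTaaacTaTTTT
Zc3h12a: cTgTTgaTacacaTTgTaTcTcTgTcaTTT
The Rc3h2 window holds 26 T in 30 bases, that of Zc3h12c 24 and that of Rc3h1 23. Zc3h12d, of average U content, comes close with 22 and has the longest run of U of the 8 genes, at 18 bases. Arid5a and N4bp1 reach 19, the median of all genes, and Zc3h12a 14. Long UTRs have more chances of such a window. Among UTRs of similar length the median was 22 for Rc3h2 (474 UTRs) and Zc3h12c (600) and 20 for Zc3h12d (1875). For Rc3h1 (324) it was 23, equal to its own window. The medians for Arid5a (21, 1443 UTRs), N4bp1 (21, 1565 UTRs) and Zc3h12a (18, 1401 UTRs) lay above the windows of these genes. The AU-rich pentamer ATTTA, searched on the transcript strand, occurred 27 times in Rc3h2, 20 times in Rc3h1 and 15 times in Zc3h12c. It occurred 3 times in Zc3h12a and N4bp1, 2 times in Arid5a and Zc3h12d and 4 times in Malt1. At least 1 ATTTA was present in 73.5% of all 3′ UTRs and in 100.0% of those 474.

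Stem-loops of the kind that regnase-1 and the roquins are known to bind were searched as a perfect stem of 6 Watson-Crick base pairs closing a loop of TAT or TGT, on the transcript strand. Both roquin genes carried the same 15-base hairpin with a TGT loop, at chr1:160799230-160799244 in Rc3h1 and at chr2:37263821-37263835 in Rc3h2, and no other of the 10980 3′ UTRs contained that sequence. In the lines here capitals mark the loop.
Rc3h1: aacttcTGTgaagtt
Rc3h2: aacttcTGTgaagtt
Zc3h12a: tttaaaTATtttaaa
The Zc3h12a hairpin lies at chr4:125012456-125012470 and was found in 4 of the 10980 UTRs. A TGT hairpin of any sequence was present in 2.7% of all 3′ UTRs and a TAT hairpin in 2.8%. Among UTRs of a length near that of the gene, a TGT hairpin was present in 9.0% for Rc3h1 and 8.4% for Rc3h2, and a TAT hairpin in 1.4% for Zc3h12a. Rc3h1 also held 3 TAT hairpins, 2 of which overlap, and the other 5 genes held neither kind. These matches describe the letters and were not tested as binding sites.

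In unstimulated cells the roquins, N4bp1 and Malt1 were the most abundant of the 8 mRNAs, and the regnases and Arid5a were low. Levels are compared here as CPM per kb of canonical transcript in total RNA, which divides each gene's CPM by its length. In DMSO, N4bp1 had 6.5 ± 0.437, Rc3h1 6.24 ± 1.14, Malt1 5.65 ± 1.3 and Rc3h2 5.49 ± 0.539 CPM per kb (SD, n = 4), with overlapping ranges. Below them lay Zc3h12c at 2.46 ± 0.688 and Zc3h12a at 2.16 ± 0.677, which overlapped each other, then Arid5a at 0.429 ± 0.359 and Zc3h12d at 0.050 ± 0.0553. The order was different in LPS. Zc3h12a led with 49.2 ± 3.11 CPM per kb, without overlap with Malt1 at 33.5 ± 10.1, which stood apart from N4bp1 at 15.5 ± 0.923. Rc3h1 followed with 9.54 ± 0.606 and overlapped Rc3h2 at 7.86 ± 1.27. Zc3h12c at 4.81 ± 1.24 and Arid5a at 4.32 ± 1.3 overlapped, and Zc3h12d remained lowest at 0.512 ± 0.0258. With TM7nox added, Zc3h12a at 32.9 ± 1.83 stayed above Malt1 at 20.8 ± 6.06, and Zc3h12c moved up to 10.6 ± 2.28, overlapping Rc3h1 at 11.04 ± 1.72.

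LPS raised the total RNA of all 8 genes (edgeR quasi-likelihood test, Benjamini-Hochberg adjusted p, or FDR, under 0.05). Of all 12369 genes tested, 42% passed the test and 20.2% were higher. The increases ran from 23.3-fold for Zc3h12a to 1.4-fold for Rc3h2. In bulk libraries a change in the number of cells that express a gene and a change in RNA per cell cannot be told apart. With library totals in place of TMM scaling the median of all genes moved from -0.04 to -0.33 on the log2 scale, the share of higher genes among those called from 48.2% to 27.7%, and the roquins no longer passed. Within replicates 1 and 2 alone Rc3h1 (FDR = 0.0949), Rc3h2 (0.322) and Zc3h12d (0.068) did not pass.

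Among the regnases, Zc3h12a responded most. It stood at 8.27, 3.78, 6.92 and 5.55 CPM in the DMSO libraries, replicates 1 to 4, and at 136, 136, 152 and 132 CPM with LPS. The log2 fold change was 4.54 ± 0.207 (SE; FDR = 2.26e-09), larger than for 98.4% of genes. Zc3h12c, regnase-3, was at 19.3, 30.6, 18.3 and 18.1 CPM in DMSO and at 46.5, 55.5, 33.0 and 33.6 CPM with LPS. Its lowest LPS library thus lay just above its highest DMSO library, and the log2 fold change was 0.93 ± 0.222 (FDR = 0.00364). Zc3h12d, regnase-4, was barely expressed, with 0, 13, 15 and 1 counts in the DMSO libraries. A count of 0 in the shallow replicate 1 allows up to 0.636 CPM (3 counts, counting error only). With LPS it reached 2.14, 2.32, 2.06 and 2.18 CPM, a log2 fold change of 3.03 ± 0.57 (FDR = 0.000658) that was 3.62 without RNA DMSO replicate 3.

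The roquins changed least. Rc3h1 was at 50.03, 74.8, 76.7 and 73.0 CPM in DMSO and at 96.0, 105, 108 and 112 CPM with LPS (log2 fold change 0.58 ± 0.138, FDR = 0.00363). Rc3h2 went from 51.9, 64.3, 58.0 and 53.2 CPM to 67.6, 99.2, 80.1 and 78.6 CPM (0.48 ± 0.158, FDR = 0.0234). The Rc3h2 groups were separated only narrowly, and its call was lost without RNA LPS replicate 2 (FDR = 0.0822) and without RNA DMSO replicate 4 (FDR = 0.0649).

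Of the regulators, Arid5a, the antagonist of regnase-1 on Il6 mRNA, had 5.72, 1.31, 1.19 and 2.01 CPM in DMSO and 17.7, 21.6, 28.7 and 35.1 CPM with LPS. The high DMSO value belongs to the shallowest library. The log2 fold change was 3.67 ± 0.448 (FDR = 1.63e-05). Within replicates 1 and 2 alone it was 2.78, and within replicates 3 and 4 alone 4.33. Malt1 (chr18:65564009-65612138, plus strand, GRCm39), the gene of the protease that cleaves regnase-1 and the roquins, rose from 29.9, 40.1, 25.8 and 24.9 CPM to 108, 238, 193 and 177 CPM (2.54 ± 0.269, FDR = 4.28e-06). N4bp1, itself a MALT1 substrate, rose from 44.1, 38.3, 44.3 and 43.3 CPM to 110, 97.2, 98.7 and 98.4 CPM (1.22 ± 0.125, FDR = 3.04e-06). Its 4 LPS libraries were the most alike in proportion of the 3 regulators.

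**Figure D1:**
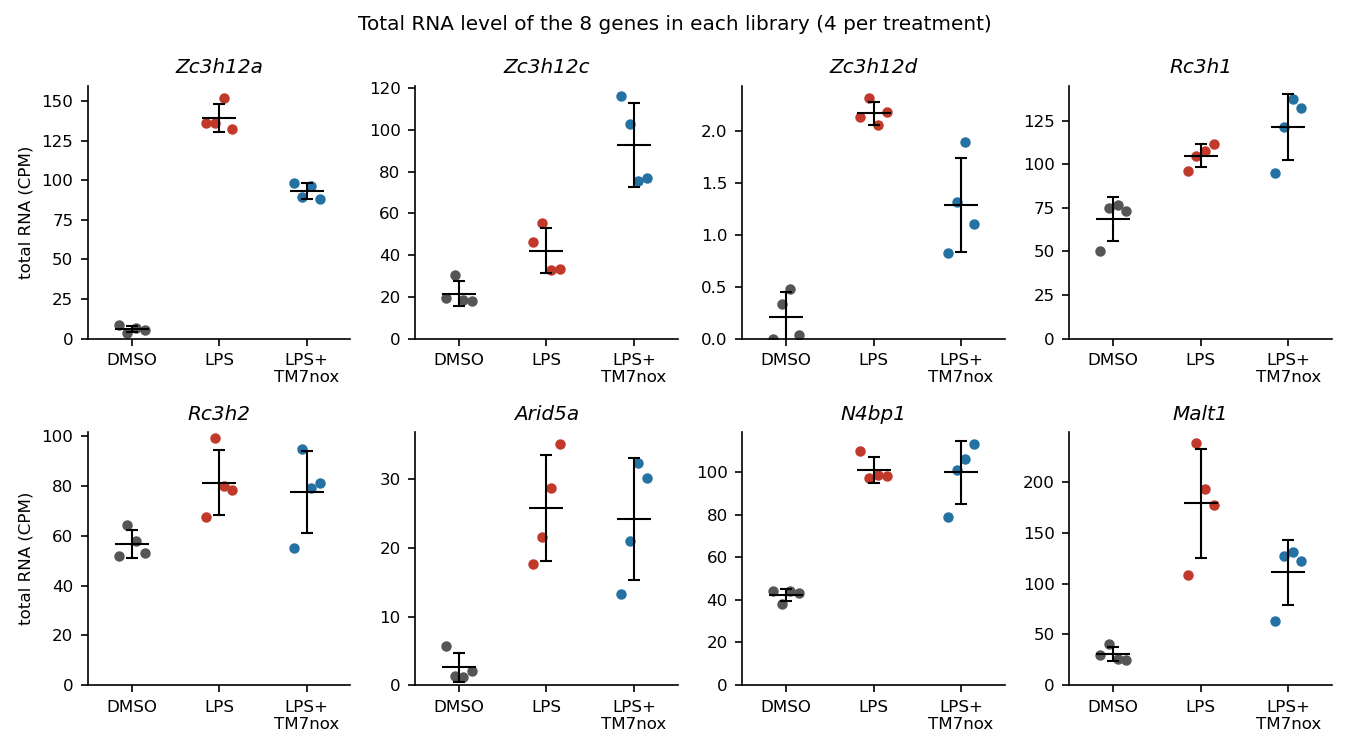
Total RNA level (CPM, linear axis from 0) of the 8 genes in each library, with 4 libraries per treatment as points and bars for the mean ± SD. Zc3h12a sits between 132 and 152 CPM in LPS and between 88.1 and 98.6 CPM in LPS+TM7nox, whereas Zc3h12c rises again from LPS to LPS+TM7nox, and for N4bp1 and Rc3h2 these groups overlap.

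TM7nox moved 2 regnases in opposite directions in total RNA. Of the 8 genes, 2 passed the test between LPS+TM7nox and LPS, against 13.8% of all genes tested (1704 genes, or 3091 with the replicate number as a block). Zc3h12a fell from the LPS values above to 98.6, 89.5, 96.7 and 88.1 CPM, a log2 fold change of -0.58 ± 0.173 (FDR = 0.0397), and the groups did not overlap. That call is marginal: leaving out any single LPS or LPS+TM7nox library, or RNA DMSO replicate 4, gave values from -0.61 to -0.53 with an FDR between 0.0517 and 0.103. With library totals its FDR was 0.0648 and within replicates 1 and 2 alone 0.579. Zc3h12c rose further to 116, 103, 75.3 and 77.0 CPM, each above every LPS library. Its log2 fold change was 1.14 ± 0.219 (FDR = 0.00318), larger than for 96.7% of genes, and was lost only within replicates 1 and 2 alone (1.10, FDR = 0.0644) among the 19 alternatives.

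The other 6 genes did not pass in total RNA. Malt1 had 62.8, 127, 132 and 122 CPM with TM7nox, overlapping LPS through LPS replicate 1 at 108 CPM. Its log2 fold change was -0.68 ± 0.253 (FDR = 0.0939), and with the replicate number as a block it was -0.68 and passed (FDR = 0.011). It also passed with DESeq2 (FDR = 0.0499), without the low-count filter (0.000701), within replicates 3 and 4 (0.0018) and without RNA LPS replicate 1 (0.0329). Zc3h12d was at 0.826, 1.32, 1.90 and 1.11 CPM, below every LPS library, but at -0.74 ± 0.486 its FDR was 0.374. For N4bp1 the difference was -0.01, with a 95% interval of -0.28 to 0.25, and for Rc3h2 -0.06 (-0.40 to 0.27). The interval of Rc3h1 ran from -0.08 to 0.51, with a pass within replicates 3 and 4 alone (0.32, FDR = 0.0159), and that of Arid5a from -0.87 to 0.70. Against DMSO all 8 genes were still higher in LPS+TM7nox, where 47.3% of all genes were called and 23.7% were higher. This comparison shares the DMSO libraries with that of LPS. Within replicates 1 and 2 alone Zc3h12d did not pass (FDR = 0.177), nor did Rc3h2 (0.451). The log2 fold changes ran from 0.42 for Rc3h2 (FDR = 0.0398, groups overlapping) to 3.96 for Zc3h12a, with 2.07 for Zc3h12c. That of Arid5a (3.59) was 2.58 within replicates 1 and 2 and 4.32 within replicates 3 and 4, and that of Zc3h12d (2.28) was 2.88 without RNA DMSO replicate 3. With library totals the share of higher calls over all genes fell from 50% to 29%, and Rc3h2 no longer passed (0.09, FDR = 0.647). The Rc3h2 call was also lost without any 1 of RNA DMSO replicates 1, 3 and 4, RNA LPS replicates 3 and 4 and RNA LPS+TM7nox replicates 2 to 4, with an FDR between 0.0513 and 0.132.

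Anti-HuR RIP divided the 8 mRNAs into those recovered well above their level in total RNA and those recovered near or below it. TMM scaling sets the typical gene near 0 in this comparison, so values are relative to it. In DMSO 4 of the 8 genes were higher in RIP than in RNA and none passed as lower. Of all genes 70.4% were called, 37% as higher and 33.4% as lower. In LPS 3 of the 8 were higher, with 63.7% of all genes called, 32.9% as higher and 30.8% as lower. In LPS+TM7nox 4 were higher and 2 lower, with 69.9% of all genes called, 35.2% as higher and 34.8% as lower. The counts of higher genes thus lie near the background. With library totals the share of higher calls over all genes fell from 52.6% to 34.7% in DMSO, from 51.7% to 25.8% in LPS and from 50.3% to 29.6% in LPS+TM7nox. The median of all genes went from 0.04 to -0.72, from -0.06 to -1.06 and from -0.09 to -1.07 on the log2 scale.

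Rc3h2 was recovered most strongly. Its RIP libraries held 966, 1401, 1167 and 997 CPM in DMSO, where its RNA libraries held 51.9 to 64.3 CPM. RIP over RNA was 4.43 ± 0.231 on the log2 scale in DMSO, 4.49 ± 0.231 in LPS and 4.84 ± 0.235 in LPS+TM7nox, above 96.7%, 97.2% and 97.1% of genes. Rc3h1 reached 277, 423, 463 and 474 CPM in DMSO RIP, and its RIP over RNA was 2.67 ± 0.224, 2.41 ± 0.221 and 3.03 ± 0.227 in the 3 treatments. Zc3h12c had 113, 160, 126 and 118 CPM in DMSO RIP and values of 2.69 ± 0.239, 2.49 ± 0.236 and 2.89 ± 0.239. For these 3 genes every RIP library exceeded every RNA library of its treatment, every FDR was at most 1.3e-09, and the call was kept under each alternative run. The size was not: with library totals the DMSO, LPS and LPS+TM7nox values were 3.65, 3.48 and 3.85 for Rc3h2, 1.91, 1.40 and 2.02 for Rc3h1, and 1.92, 1.46 and 1.86 for Zc3h12c.

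Zc3h12d, with 0.496 to 1.12 CPM in DMSO RIP, gave 1.51 ± 0.496 in DMSO (FDR = 0.00877), 0.73 ± 0.399 in LPS (FDR = 0.111) and 1.51 ± 0.413 in LPS+TM7nox (FDR = 0.00229). With library totals none of these passed, nor did DMSO within either pair of replicates (FDR = 0.0917 and 0.101) or LPS+TM7nox within replicates 3 and 4 (0.0924). RLE scaling (FDR = 0.0481) and DESeq2 (0.0166) called it in LPS, and with library totals the LPS value turned to -0.27. None of the remaining 4 mRNAs passed as higher in RIP. Zc3h12a had 5.42, 4.63, 4.64 and 4.57 CPM in DMSO RIP and 131, 116, 134 and 129 CPM in LPS RIP, with RIP over RNA of -0.18 ± 0.161 and -0.13 ± 0.147, neither of which passed. Without RNA DMSO replicate 2 it was called lower in DMSO (-0.38, FDR = 0.0281), as it was with library totals in DMSO (-0.97, FDR = 0.000232) and LPS (-1.13, FDR = 1.1e-05), while RLE scaling turned the LPS value to 0.05. With LPS+TM7nox it was lower in RIP than in RNA, at -0.64 ± 0.148 (FDR = 0.000495), or -1.62 with library totals. Arid5a was at -0.68 ± 0.403 in DMSO (FDR = 0.132) and -0.48 ± 0.326 in LPS (FDR = 0.205). Library totals called it lower in both (-1.48, FDR = 0.00232, and -1.45, FDR = 0.000433), and so did the fit without the low-count filter in DMSO (-0.91, FDR = 0.00432). It passed as lower in LPS+TM7nox, at -0.87 ± 0.33 (FDR = 0.0213), or -1.84 with library totals, a call lost with RLE scaling (FDR = 0.0935), DESeq2 (0.104), within replicates 1 and 2 (0.199), and without any 1 of RIP LPS+TM7nox replicates 1 and 2 and RNA LPS+TM7nox replicates 3 and 4 (0.0642 to 0.112). N4bp1 was at -0.32 ± 0.148, -0.10 ± 0.147 and -0.27 ± 0.147, and Malt1 at 0.01 ± 0.303, -0.43 ± 0.299 and -0.53 ± 0.3, none of which passed. N4bp1 in DMSO (FDR = 0.0551) was called lower under 17 of 31 alternatives, among them the replicate block (-0.32, FDR = 0.0244), library totals (-1.12, FDR = 7.77e-07), no low-count filter (FDR = 0.0252) and 14 that leave out a single library (FDR = 0.00759 to 0.0499). With the replicate block Malt1 passed as lower in LPS (-0.42, FDR = 0.0429) and LPS+TM7nox (-0.49, FDR = 0.0176). It was also called lower within replicates 3 and 4 in LPS (FDR = 0.0106) and LPS+TM7nox (0.00258), and in LPS+TM7nox without the low-count filter (0.00397) or without RNA LPS+TM7nox replicate 1 (0.0265). Leaving out that library called N4bp1 lower there too (-0.40, FDR = 0.0145). With library totals N4bp1 was called lower in LPS (-1.11) and LPS+TM7nox (-1.25), and Malt1 in DMSO (-0.77), LPS (-1.43) and LPS+TM7nox (-1.50).

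**Figure D2:**
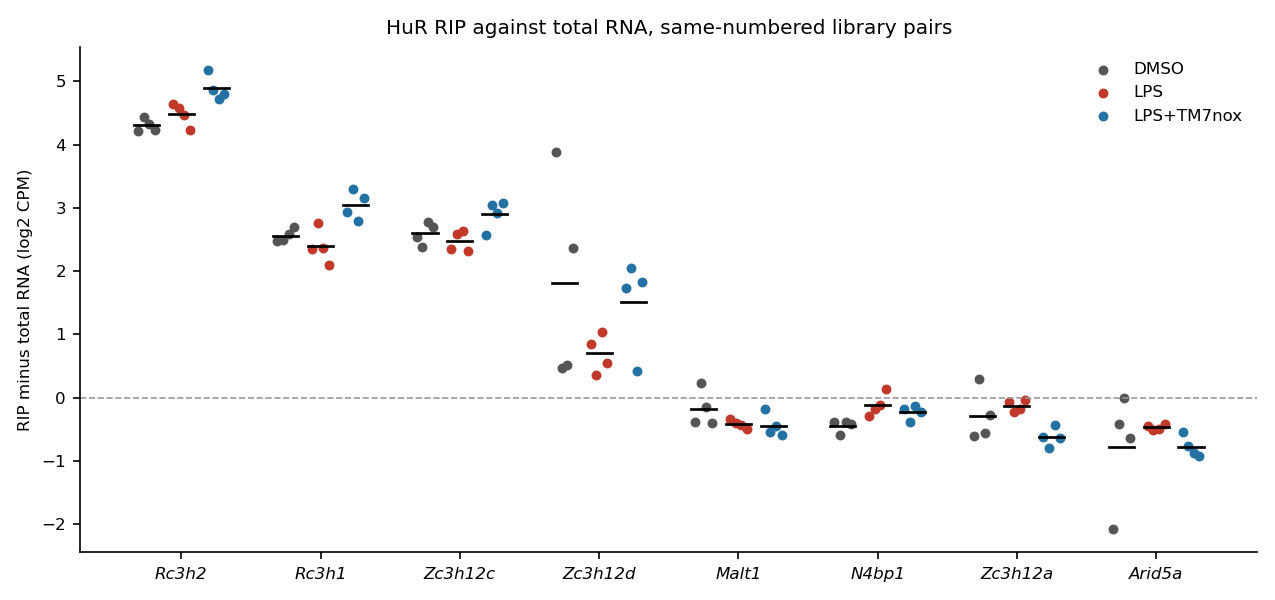
Log2 CPM in RIP minus log2 CPM in total RNA of the same-numbered library for each gene and treatment, with points for the 4 pairs and bars for their mean. Rc3h2, Rc3h1 and Zc3h12c lie at 2.10 or higher in every pair, Zc3h12d spreads widely at its low counts, and the other 4 genes lie around or below 0, where the sign of Malt1 in DMSO and of Zc3h12a and N4bp1 in LPS changes with the scaling, as does that of Zc3h12d in LPS.

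The control IgG gave no such recovery. IgG libraries (1 per treatment) held 43.2, 76.6 and 73.9 CPM of Rc3h2 in DMSO, LPS and LPS+TM7nox, against 1167, 1771 and 2100 CPM in the same-numbered RIP libraries. Over the 15 RIP and IgG libraries, with treatment as a covariate, 7 of the 8 genes differed between RIP and IgG, as did 68.1% of all genes tested. Rc3h2 (4.72 ± 0.251), Zc3h12c (2.89 ± 0.244) and Rc3h1 (2.70 ± 0.244) were higher in RIP on the log2 scale, and each was called under all alternatives, with library totals at 3.68, 1.85 and 1.66. Zc3h12d was higher by 0.92 ± 0.347 (FDR = 0.0242), but it did not pass with the replicate block (0.72, FDR = 0.117), without IgG DMSO (0.80) or without IgG LPS+TM7nox (0.58). Without IgG LPS its value was 1.62, and with library totals it turned to -0.09. Zc3h12a (-0.49 ± 0.13), Arid5a (-0.83 ± 0.207) and Malt1 (-0.84 ± 0.246) were lower in RIP than in IgG, the first not without the low-count filter (-0.37, FDR = 0.153). Without the IgG LPS+TM7nox library, the shallowest of these, 4 of the 8 genes were called, with 59% of all genes called. Arid5a (-0.59, FDR = 0.0538) and Malt1 (-0.63, FDR = 0.0749) then no longer passed. N4bp1 did not pass (-0.22 ± 0.139, FDR = 0.159). With library totals it was called lower (-1.26, FDR = 8.95e-08), and Zc3h12a, Arid5a and Malt1 were at -1.52, -1.88 and -1.89. Over all genes, library totals moved the share of higher calls from 49.7% to 25.8% and the median from -0.001 to -1.02.

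The genes with the most U in the 3′ UTRs shown above were those recovered most, and they also had the longest 3′ UTRs. The order by U did not hold among the rest. Rc3h2, Rc3h1 and Zc3h12c had the 3 highest U shares and the 3 highest RIP over RNA values in all treatments, and the Zc3h12a and Arid5a UTRs, with the lowest U shares, were near or below 0. N4bp1 (28.6% U) and Malt1 (29.2% U) were near or below 0 as well: N4bp1 in DMSO, at -0.32, and Malt1 in LPS, at -0.43, lay below Zc3h12a at -0.18 and -0.13. Over all genes the median RIP over RNA in DMSO was -0.78 for the 1360 genes with under 24% U, -0.17 for the 8146 with 24% to 34% and 0.61 for the 1474 with 34% or more. A group of 68 genes had both 34% U or more and 3′ UTRs of at least 5000 bases, and their median was 2.45 in DMSO, 2.15 in LPS and 2.62 in LPS+TM7nox. Within those 68, Rc3h1 ranked 32 and Zc3h12c 31 from the top in DMSO, near the middle, and Rc3h2 ranked 4. The limits of these groups were set with the values of the 8 genes known, so they describe and do not test. No group was formed by length alone, so U share and length cannot be told apart here.

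**Figure D3:**
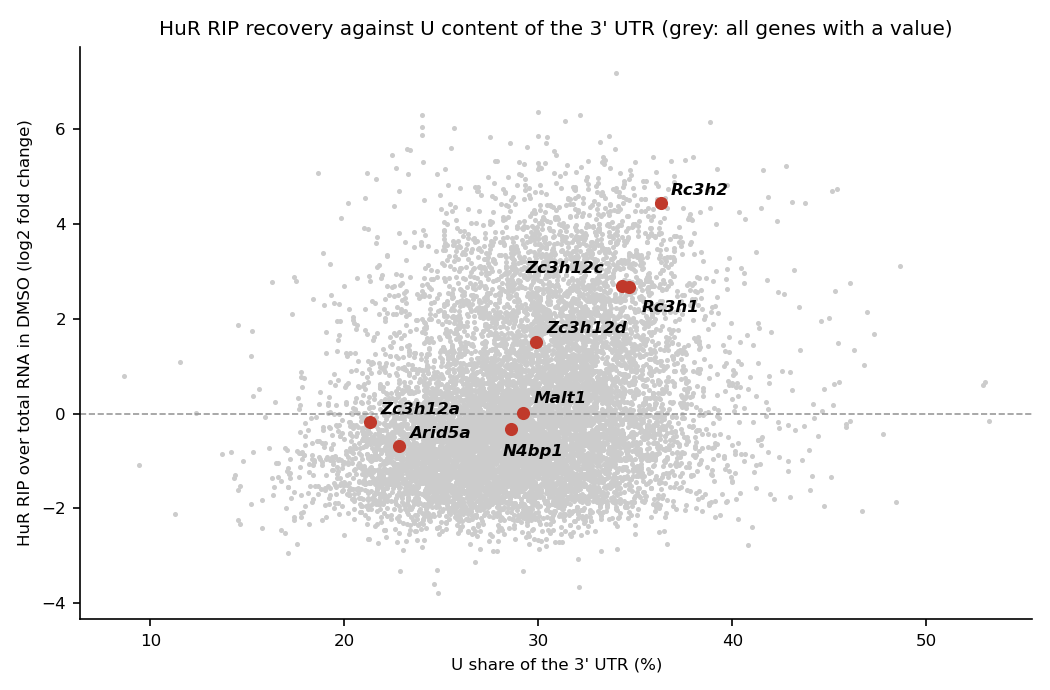
RIP over total RNA in DMSO (log2 fold change) against the U share of the 3′ UTR in percent, with grey points for all 10980 genes with a value and red points for the 8 genes. Rc3h2, at 36.3% U, has the highest value of the 8, Rc3h1 and Zc3h12c lie together near 34% U, and Zc3h12a and Arid5a have the lowest U shares, with values of -0.18 and -0.68.

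Within the RIP libraries LPS raised 7 of the 8 genes. Of all genes 44.7% were called, 23.5% as higher and 21.2% as lower. The log2 fold changes were 4.70 ± 0.173 for Zc3h12a, 3.96 ± 0.273 for Arid5a, 2.31 ± 0.33 for Zc3h12d, 2.22 ± 0.294 for Malt1, 1.56 ± 0.166 for N4bp1, 0.84 ± 0.221 for Zc3h12c and 0.67 ± 0.203 for Rc3h2. Rc3h1 held 489, 710, 557 and 480 CPM in LPS, above every DMSO library, yet did not pass (0.43 ± 0.219, FDR = 0.123). It passed with the replicate block (0.45, FDR = 0.0194), and with library totals its value was -0.21 (FDR = 0.344). Library totals moved the share of higher calls over all genes from 52.6% to 16.8% and the median from -0.004 to -0.63, and left Rc3h2 at 0.03 (FDR = 0.895) and Zc3h12c at 0.20 (FDR = 0.4). The other 5 kept their calls, at 4.08 for Zc3h12a, 3.35 for Arid5a, 1.68 for Zc3h12d, 1.58 for Malt1 and 0.94 for N4bp1. The Rc3h2 call was also lost within either pair of replicates (FDR = 0.156 and 0.167) and without any 1 of RIP DMSO replicates 1, 3 and 4 and RIP LPS replicate 2 (0.0525 to 0.0735). That of Zc3h12c was lost within replicates 3 and 4 (0.53, FDR = 0.107).

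TM7nox lowered 1 of the 8 mRNAs in RIP and raised 2, with 16.2% of all genes called (2212 genes, or 4577 with the replicate block). Over all genes 7.61% were lower and 8.64% higher. Zc3h12a fell to 64.1, 51.7, 71.7 and 56.7 CPM, 2.16-fold below LPS and with no overlap (-1.11 ± 0.149, FDR = 0.00016). Zc3h12c was at 238, 333, 205 and 167 CPM in LPS RIP and reached 695, 851, 572 and 647 CPM with TM7nox, again without overlap (1.51 ± 0.224, FDR = 0.00035). Its LPS+TM7nox RIP libraries held more than any IgG library, where it was at 18.3, 36.7 and 73.3 CPM. Rc3h1 reached 724, 1199, 957 and 1176 CPM, all above the LPS libraries (0.82 ± 0.22, FDR = 0.0186). The Rc3h1 call was lost within replicates 1 and 2 (0.65, FDR = 0.322) and without any 1 of RIP LPS replicates 1 and 4 and RIP LPS+TM7nox replicates 2 and 4, with an FDR of 0.0551 to 0.0596.

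Of the other 5 genes in RIP, Rc3h2 held 1683, 2381, 1771 and 1484 CPM in LPS and 2010, 2769, 2100 and 2276 CPM with TM7nox. These groups overlapped, with a difference of 0.28 (95% interval -0.15 to 0.71), although each LPS+TM7nox library lay above the LPS library of its number. N4bp1 differed by -0.18 (-0.52 to 0.16) and Zc3h12d by 0.02 (-0.62 to 0.67), and the sign of the latter turned with library totals and with the block. Malt1 held 85.8, 181, 142 and 126 CPM in LPS and 55.3, 87.3, 95.9 and 80.8 CPM with TM7nox (-0.79 ± 0.283, FDR = 0.0683). Arid5a held 12.9, 15.1, 20.3 and 26.2 CPM in LPS and 9.09, 12.3, 17.7 and 15.9 CPM with TM7nox (-0.48 ± 0.233, FDR = 0.173). For both, each LPS+TM7nox library lay below the LPS library of the same number. Malt1 also passed with DESeq2 (FDR = 0.0473), without the low-count filter (0.00455) and without RIP LPS replicate 1 (0.0499) or RIP DMSO replicate 2 (0.0263). With the replicate block 5 genes were called in place of 3, and 33.6% of all genes in place of 16.2%. Malt1 (-0.75, FDR = 0.00306) and Arid5a (-0.47, FDR = 0.0278) then passed as lower. Against DMSO all 8 genes were higher in LPS+TM7nox RIP, where 48.1% of all genes were called and 25.1% were higher. Library totals moved the share of higher calls over all genes from 52.1% to 18.2%. Those log2 fold changes ran from 0.95 for Rc3h2 to 3.59 for Zc3h12a, or from 0.29 to 2.97 with library totals, and Rc3h2 did not pass with library totals (0.29, FDR = 0.15) or within replicates 1 and 2 (0.94, FDR = 0.0655), nor Malt1 within the latter (0.95, FDR = 0.0953).

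**Figure D4:**
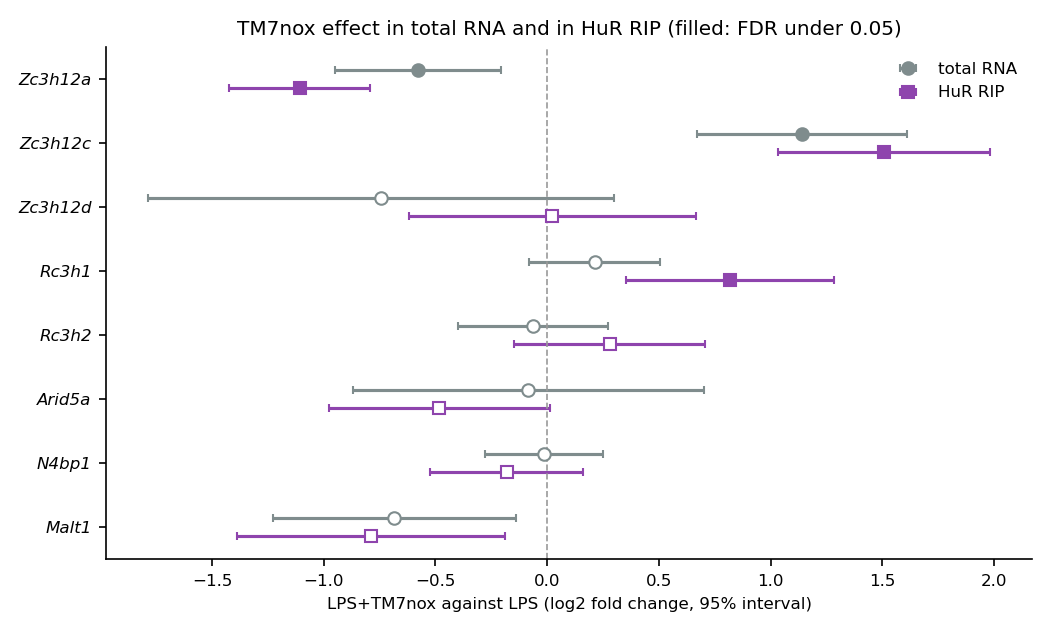
Log2 fold change of LPS+TM7nox against LPS for each gene in total RNA (circles) and in RIP (squares), with 95% intervals from the edgeR fits and filled symbols where FDR was under 0.05. Zc3h12a is lower and Zc3h12c higher in both kinds of library, while Rc3h1 is filled in RIP only, at 0.82.

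Whether RIP and total RNA responded differently was tested as an interaction. None of the 8 genes was called in either interaction by edgeR. For LPS against DMSO 0 of 8 had an unadjusted p under 0.05, and for LPS+TM7nox against LPS 1 of 8 did, Zc3h12a. The backgrounds were 0.0419% of all genes called for LPS and 0.00699% for TM7nox. DESeq2 and the other alternatives, 31 in all, also called 0 of the 8. The Zc3h12a difference was -0.51 ± 0.209 for TM7nox (FDR = 0.871), the fall in RIP being the larger, with a 95% interval of -0.94 to -0.08. Its pairwise RIP minus RNA values were -0.06, -0.24, -0.18 and -0.04 in LPS and -0.62, -0.79, -0.43 and -0.64 in LPS+TM7nox, without overlap. Such pairs rest on the replicate numbers, whose pairing was checked only within each assay. How many of all genes have pairs that stand apart was not counted. For Rc3h1 the difference was 0.61 ± 0.297 (interval -0.001 to 1.22). Its pairs also stood apart, at 2.35, 2.76, 2.37 and 2.10 in LPS and 2.93, 3.30, 2.80 and 3.15 with TM7nox. For Zc3h12c (0.39, interval -0.26 to 1.04) and Rc3h2 (0.35, -0.23 to 0.93) the intervals include 0, although each pair was higher with TM7nox than the LPS pair of its number. For Arid5a each pair was lower, and its interval also includes 0 (-1.347 to 0.555). The filled symbol of Rc3h1 in RIP and the open one in RNA therefore do not show a difference between the assays. For LPS against DMSO the differences ran from -0.78 for Zc3h12d (interval -2.07 to 0.51) to 0.22 for N4bp1 (-0.21 to 0.65). Only 6 of all genes were called in that interaction, 33.3% of them as higher. With library totals 27 were called, 7.41% of them as higher.

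The mRNAs of proteins that work with these regulators were counted next. Of 28 genes for kinases, ubiquitin enzymes and decay factors around regnase-1, the roquins and MALT1, 26 passed the filter. LPS raised 13 and lowered 3 in total RNA, with a median log2 fold change of 0.40 against -0.04 over all genes, of which 20.2% were higher and 21.7% lower. The largest increases were in Tnfaip3 (4.79 ± 0.253), which encodes the ubiquitin-editing enzyme A20, the kinase gene Ikbke (3.13 ± 0.198) and the ubiquitin ligase gene Peli1 (3.05 ± 0.187). Card9 (-1.01 ± 0.155), an adaptor that pairs with BCL10 and MALT1, the deubiquitinase gene Usp10 (-0.55 ± 0.123) and the kinase gene Irak1 (-0.51 ± 0.128) fell. TM7nox raised 3 of the 26 over LPS, namely Card9 (0.71 ± 0.154), Smg1 (0.43 ± 0.0978), a kinase of the helicase UPF1, and Cnot8 (0.37 ± 0.0991), a deadenylase subunit. It lowered Tnfaip3 (-1.19 ± 0.215) and Ikbke (-1.01 ± 0.18). Over all genes 7.37% were higher and 6.4% lower, so these counts lie near the background. In RIP over RNA in DMSO 14 of the 26 were higher and 6 lower, with a median of 0.56 against 0.04 over all genes, of which 37% were higher and 33.4% lower.

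A list of 24 mRNAs reported as regnase-1, roquin or ARID5A targets in any cell type, of which 17 passed the filter, includes Zc3h12a itself. LPS raised 14 of the 17 and lowered 0, with a median of 4.54 against -0.04 over all genes, of which 20.2% were higher. That median is the value of Zc3h12a itself, and without it, a choice made after seeing the data, LPS raised 13 of 16 with a median of 4.77. Il1b (10.51 ± 0.688), Lcn2 (9.73 ± 0.51) and Il6 (9.33 ± 1.08) rose most, encoding a cytokine precursor, a siderophore-binding protein and the best known regnase-1 target. No gene of the list passed as lower in LPS against DMSO. TM7nox lowered 5 of the 17 against LPS: Il1b (-1.83 ± 0.448), Nfkbid (-1.14 ± 0.188), Lcn2 (-0.99 ± 0.289), the transcription factor gene Stat3 (-0.86 ± 0.119) and Zc3h12a. It raised only the chemokine gene Cxcl2 (1.62 ± 0.345, FDR = 0.00629), and the median was -0.58 against -0.003 over all genes, of which 6.4% were lower and 7.37% higher. The median is again that of Zc3h12a, and without it 4 of 16 were lower and 1 higher, with a median of -0.57. Il6 did not pass (-0.52 ± 0.596, FDR = 0.648). Both lists were drawn up with earlier results of these data known, and their counts are given as description.

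The mRNAs most alike to Zc3h12a over the 12 RNA libraries, among 8253 genes, were Ass1 (Pearson r of log2 CPM = 0.996), Socs3 (0.995) and Cd40 (0.995). Their log2 fold changes with LPS were 4.14, 8.49 and 6.61, and with TM7nox against LPS -0.51, -1.72 and -0.54. For Arid5a they were Clint1 (0.989), Ifi35 (0.985) and Csrnp1 (0.985), with 0.91, 2.24 and 2.83 for LPS and 0.01, -0.06 and 0.21 for TM7nox. These correlations rest on 3 treatment groups and share libraries, so they describe the step between treatments.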

How the data were processed

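RAW264.7 cells were profiled by RNA-seq, anti-HuR RIP-seq and IgG RIP-seq. The authors deposited 1 table of raw read counts per gene, whole numbers without normalization. The submitters' processing notes name FastQC 0.11.9, STAR, HTSeq, DESeq2 and GRCm39. The sources used here do not give the annotation release or the strand setting of the counting. No molecular identifiers are stated, so intervals and floors cover counting error only. All 27 columns were matched to samples by their labels.

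The count tests used edgeR 4.0.16 and R 4.3.3 (quasi-likelihood F tests, two-sided, TMM scaling, filterByExpr with a minimum count of 10, Benjamini-Hochberg adjustment over all genes tested, FDR under 0.05). The 12 RNA libraries, the 12 RIP libraries, those 24 together (RIP over RNA and the interactions) and the 15 RIP and IgG libraries were each fitted as 1 model. CPM are on 1 TMM scale over 27 libraries, and log2 CPM use a prior count of 2. Errors of fold changes are standard errors, those of levels SD. The scripts were tested on simulated data. Alternatives were RLE scaling, library totals, DESeq2 1.42.0, no low-count filter, a replicate block, replicates 1 and 2 or 3 and 4 only (for IgG replicate 3 only), and each library left out.

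The fits printed carry no replicate block, and a blocked value stands beside a result where it changes the call. The replicate numbers, given in the labels, appear to pair the samples: deviations from the group means correlated in every same-numbered pair, with r from 0.195 to 0.453 over 12 RNA pairs and from 0.259 to 0.542 over 12 RIP pairs. For different numbers r ran from -0.384 to 0.37 in RNA and from -0.416 to 0.241 in RIP, with medians of -0.114 and -0.196. Taking deviations from group means pushes these values below 0, so their sign is not separate evidence of pairing. Whether a RIP library pairs with the RNA library of its number was not checked.

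The genes and lists were chosen with earlier results of these data known. From the lists, the text names the 3 called genes with the largest change in each direction, among genes with 5 CPM or more on average in total RNA. For TM7nox in the target list it also names the other called genes that were lower, Stat3 and Zc3h12a, and Il6, which did not pass. For Zc3h12a and Arid5a it names the 3 genes with the highest correlation. UTRs came from GENCODE M39 canonical transcripts on GRCm39.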

Additional observations from a re-analysis of the deposited data

Results flagged for a closer look

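In 8 of 48 groups of 4 libraries, 1 library stood apart from the other 3 by Dixon's 95% limit, where chance gives about 1 in 20. In DMSO these were Zc3h12c in RNA replicate 2 (30.6 CPM, the others at most 19.3), Rc3h1 in RNA replicate 1 (50.03 CPM, the others at least 73.0), N4bp1 in RNA replicate 2 (38.3 CPM, the others at least 43.3) and in RIP replicate 2 (25.4 CPM, the others at least 32.5), Malt1 in RIP replicate 2 (46.8 CPM, the others at most 23.2) and Zc3h12a in RIP replicate 1 (5.42 CPM, the others at most 4.64). N4bp1 was high in RNA LPS replicate 1 (110 CPM, the others at most 98.7), and Malt1 was low in RNA LPS+TM7nox replicate 1 (62.8 CPM, the others at least 122). All 8 values belong to replicates 1 and 2.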

How the results depend on the processing

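Of 56 values called for single genes, 37 kept direction and call under all alternatives, and 1 of their 1234 alternative values reversed (Zc3h12d in RIP against IgG, -0.0907 with library totals). The number of the 8 genes called for LPS+TM7nox against LPS in RNA (2) was 1 with library totals, 0 within replicates 1 and 2, 4 within replicates 3 and 4, and 1 to 2 when single libraries were left out; for LPS against DMSO in RNA (8) it was 5 within replicates 1 and 2, and for LPS+TM7nox against LPS in RIP (3) it was 5 with the replicate block. Of all genes, LPS+TM7nox against LPS in RNA called 12% with library totals, 1.35% within replicates 1 and 2 and 27.9% within replicates 3 and 4. LPS against DMSO in RNA called 13.4% within replicates 1 and 2, and LPS+TM7nox against LPS in RIP 33.6% with the block. RIP over RNA called 7 of the 8 genes with library totals in DMSO and in LPS, in place of 4 and 3. The shares of all genes were then 76.1% and 76.6%, in place of 70.4% and 63.7%. RIP against IgG (7) called 4 to 7 with single libraries left out, with 58.4% to 68.8% of all genes called. Beyond the results named in the report, the replicate block changed no other call of these genes.

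Over all genes, calls within replicates 1 and 2 alone fell from 5190 to 1668 (RNA, LPS against DMSO), from 1704 to 168 (RNA, LPS+TM7nox against LPS), from 5850 to 2246 (RNA, LPS+TM7nox against DMSO), from 6090 to 3392 and from 2212 to 789 (RIP, LPS against DMSO and LPS+TM7nox against LPS). Within replicates 3 and 4 LPS+TM7nox against LPS gave 3489 in RNA and 1070 in RIP. The LPS interaction (6) gave 0 to 66 calls and that with TM7nox (1) 0 to 5, the highest with DESeq2 and without the low-count filter.

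The other reversals were of values that did not pass in the fit the report uses. With library totals: Rc3h1 in RIP, LPS against DMSO -0.21; Zc3h12d in RIP, LPS+TM7nox against LPS -0.0184; Malt1 RIP over RNA in DMSO -0.77 (FDR = 0.0131); Zc3h12d RIP over RNA in LPS -0.27; and the interaction with LPS of Zc3h12a -0.16 and Rc3h2 -0.17. With the block Zc3h12d in RIP, LPS+TM7nox against LPS was -0.0051 and Malt1 RIP over RNA in DMSO -0.0037. RLE scaling gave Zc3h12a 0.0476 and N4bp1 0.0658 in RIP over RNA in LPS, DESeq2 gave 0.0476 and 0.0659 there and 0.0109 for Zc3h12a in DMSO, and without the filter Malt1 was -0.23 in DMSO. Within replicates 1 and 2 Zc3h12a RIP over RNA in DMSO was 0.0045 and its LPS interaction -0.16. Within replicates 3 and 4, LPS+TM7nox against LPS in RNA was 0.0404 for Rc3h2 and 0.18 for N4bp1, -0.20 for Zc3h12d in RIP, Malt1 RIP over RNA in DMSO was -0.22, and the LPS interaction was -0.0192 for Rc3h2 and -0.15 for Arid5a.

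With single libraries left out, values that changed sign ranged as follows. For LPS+TM7nox against LPS they were -0.0774 to 0.0828 (N4bp1, RNA), -0.177 to 0.0698 (Rc3h2, RNA), -0.26 to 0.12 (Arid5a, RNA) and -0.21 to 0.19 (Zc3h12d, RIP). Malt1 RIP over RNA in DMSO was -0.38 to 0.19. The LPS interaction was -0.0564 to 0.241 (Zc3h12a), -0.17 to 0.46 (Arid5a), -0.03 to 0.26 (Rc3h2) and -0.43 to 0.0341 (Zc3h12c), and that with TM7nox -0.31 to 0.13 (Malt1). The cause of these shifts was not tested. The RNA DMSO libraries together held 29 counts of Zc3h12d, which limits the precision of its values.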
